A study of Mus musculus with 8 samples.

Results

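Cpt1b, Cpt2, Acadvl, Acadl, Acadm, Etfdh, Hadha, Hadhb, Acaa2 and Eci1 encode 10 enzymes of mitochondrial fatty acid oxidation, and their mRNA levels were examined in mouse hearts with and without pressure overload. The 10 genes were picked by name as beta-oxidation enzymes, with earlier results of these data known, and all 10 are among the 25929 genes of the table. Hearts came from wild-type (WT) C57BL/6 mice and from transgenic fat-1 littermates, which carry fat-1 of Caenorhabditis elegans, a desaturase that turns n-6 into n-3 polyunsaturated fatty acids. This transgene is not the mouse cadherin gene Fat1, and its own mRNA was not analysed here. Mice were 3 months old at surgery, which was either transverse aortic constriction (TAC), tied around the aorta over a 26G needle, or a sham operation in which the chest was opened without constriction. Genotype and surgery give 4 groups of 2 independent samples: the shams WT-Sham and Fat1-Sham, and the constricted WT-TAC and Fat1-TAC. WT-TAC1 stands for the first library of WT-TAC, and so on. The labels name ventricular tissue, whereas the methods name whole hearts.

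Fatty acids are the main fuel of the adult heart, and beta-oxidation inside the mitochondrion shortens each acyl chain stepwise, releasing acetyl-CoA for the citric acid cycle and electrons for the respiratory chain. The carnitine shuttle, with Cpt1 on the outer and Cpt2 on the inner mitochondrial membrane, brings long chains in. Chain-length-specific dehydrogenases start each round, the mitochondrial trifunctional protein and a thiolase complete it, and an overloaded, failing heart is known to lower these genes.

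Levels are given in FPKM, that is fragments per unit of transcript length and of sequencing depth. The depth recovered from the values lay between 14163994 fragments in WT-Sham1 and 21218331 in WT-Sham2, and at least 1969 fragments per library lay on each member other than Cpt1b, which had 109 to 193. WT-TAC1 stood apart from the other 7 libraries before any comparison. The summed level of 12 cardiomyocyte genes was 27934 FPKM there and 51084 to 67087 FPKM elsewhere. The median over all genes was 2.61 FPKM in WT-TAC1 and 0.823 to 1.58 FPKM elsewhere, and the mitochondrially encoded genes took 11.7% of its fragments and 19.3% to 27.6% elsewhere. The 5 thymocyte markers summed to 891 FPKM in WT-TAC1 and to at most 0.537 FPKM in any other library, and Rag1 was listed at 0 in 6 of the 8 libraries. The 4 fast skeletal muscle markers summed to 67.9 FPKM in WT-TAC1 and to 0.766 to 5.55 FPKM elsewhere. The 6 airway markers summed to 1482 FPKM in WT-TAC1, 3914 FPKM in WT-TAC2, 48.9 FPKM in Fat1-Sham1 and at most 1.02 FPKM in the other 5 libraries. The 5 alveolar markers summed to 95.03 FPKM in WT-TAC1, 36.5 FPKM in Fat1-Sham1, 7.31 FPKM in WT-TAC2 and at most 0.552 FPKM elsewhere. The 3 atrial markers summed to 16.7 to 39.1 FPKM in Fat1-Sham2, Fat1-TAC1 and Fat1-TAC2 and to 917 to 3542 FPKM in the other 5 libraries. Atrial mRNA was thus present under the label of ventricular tissue. The 3 brown fat markers, of a tissue that burns fatty acids itself, summed to 219 FPKM in WT-TAC2, 81.4 FPKM in WT-TAC1 and 19.1 to 83.9 FPKM elsewhere. The part of these tissues in the results below was not tested, and fewer cardiomyocytes and less RNA per cardiomyocyte cannot be told apart in bulk tissue.

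The sequences upstream of 5 members are shown. The genes moved together over the 8 libraries, though far less without WT-TAC1, and 2 of them, Hadha and Hadhb, face each other. Shared control of these genes was not tested. RefSeq promoter windows (GRCm38.p6) were at hand for 8 of the 10 members, Cpt1b and Acaa2 being the others, and the 250 bases before each start were searched on both strands. Hadha (chr5:30118304-30155162, minus strand) and Hadhb (chr5:30155248-30184593, plus strand) lie head to head with 85 bases between their annotated first exons (GENCODE M21). This stretch, chr5:30155163-30155247, is 69.4% G and C and holds the GC box GGGCGG, the motif bound by Sp1-type factors, 2 times. The windows of Acadm (chr3:153944644-153944893), Acadl (chr1:66863310-66863559) and Acadvl (chr11:70015429-70015678) are on the minus strand, read 5′ to 3′ toward the gene, and hold no annotated exon. Capitals mark GC boxes and nuclear receptor half-sites, on either strand.
Hadha-Hadhb, plus strand: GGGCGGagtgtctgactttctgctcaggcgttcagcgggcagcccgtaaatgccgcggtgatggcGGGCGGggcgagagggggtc
Acadm: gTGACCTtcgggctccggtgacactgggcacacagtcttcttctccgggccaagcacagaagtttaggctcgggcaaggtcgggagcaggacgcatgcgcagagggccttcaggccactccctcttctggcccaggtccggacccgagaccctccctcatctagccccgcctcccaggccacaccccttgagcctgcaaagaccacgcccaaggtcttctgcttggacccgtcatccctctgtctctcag
Acadl: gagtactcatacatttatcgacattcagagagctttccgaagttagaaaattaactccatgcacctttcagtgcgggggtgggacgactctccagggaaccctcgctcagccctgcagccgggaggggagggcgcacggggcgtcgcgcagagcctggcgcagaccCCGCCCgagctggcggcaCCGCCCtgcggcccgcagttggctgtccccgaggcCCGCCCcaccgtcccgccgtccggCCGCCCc
Acadvl: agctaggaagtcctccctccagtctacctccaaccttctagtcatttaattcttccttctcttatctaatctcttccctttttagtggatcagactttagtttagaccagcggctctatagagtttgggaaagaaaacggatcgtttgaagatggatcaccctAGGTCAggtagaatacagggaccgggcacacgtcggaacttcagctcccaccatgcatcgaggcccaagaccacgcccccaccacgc

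The GC box was found before Cpt2, Acadl, Hadha, Hadhb and Eci1, 5 of the 8 windows, and in 32.7% of all 32851 promoters of the same length. Acadl held 4 of them within its last 84 bases, all on the other strand. The Hadha and Hadhb windows overlap, and the box before Hadha is also counted before Hadhb, so these windows are not independent. The half-site AGGTCA, the letters that peroxisome proliferator-activated receptors (PPARs) and oestrogen-related receptors (ERRs) share, was found before Acadm and Acadvl and in 14.0% of all promoters. Longer forms that contain the half-site, TNAAGGTCA for ERRs (1.14% of all promoters) and the DR1 element for PPAR dimers, a repeat of the half-site after 1 base (0.0335%), were in 0 of the 8 windows. The palindromic core of the nuclear respiratory factor 1 motif was found before Etfdh and in 0.782% of all promoters. Annotated exons covered all 250 bases of that window, 182 of the Hadha window, 165 of Hadhb, 42 of Eci1 and 21 of Cpt2. The TATA box TATAAA was in 0 of the 8 windows and in 12.4% of all promoters. These are matches of letters only, in 250 bases.

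Cpt1b, on chromosome 15 (chr15:89416405-89425863, GRCm38), encodes the muscle form of the enzyme that commits long chains to entry. Its level was 7.26 and 5.49 FPKM in WT-Sham, 4.67 and 9.14 FPKM in WT-TAC, 7.46 and 7.65 FPKM in Fat1-Sham, and 7.87 and 9.04 FPKM in Fat1-TAC. It was the lowest member in every library. Of its 3372 annotated exon bases, 2744 (81.4%) are shared with Gm44502, a gene on the same strand that the table does not list, and the effect of this overlap on the count was not tested, so the level is uncertain. Cpt1a, the liver form, was at 8.59 to 16.2 FPKM. Cpt2 (chr4:107903981-107923610), which reforms acyl-CoA on the matrix side, was at 173 and 203 FPKM in WT-Sham, 102 and 186 FPKM in WT-TAC, 197 and 223 FPKM in Fat1-Sham, and 187 and 175 FPKM in Fat1-TAC. WT-TAC1 was the lowest library for both shuttle enzymes, as for 15.7% of all genes tested. WT-TAC2 was the highest for Cpt1b and within the WT-Sham range for Cpt2.

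The acyl-CoA dehydrogenases share the first step by chain length. Acadvl (chr11:70010183-70015411), for very long chains, was at 471 and 410.2 FPKM in WT-Sham, 233 and 438 FPKM in WT-TAC, 487 and 503 FPKM in Fat1-Sham, and 442 and 446 FPKM in Fat1-TAC. It shares 42.9% of its exon bases with Dvl2 on the opposite strand, and the library kit is not named as one that marks strand. Dvl2 was at 3.07 to 12.7 FPKM, and the effect of this overlap on the count was not tested. Acadl (chr1:66830839-66863277), for long chains, was at 699.9 and 715 FPKM in WT-Sham, 388 and 664 FPKM in WT-TAC, 750.4 and 776 FPKM in Fat1-Sham, and 612 and 629 FPKM in Fat1-TAC. For Acadl both constricted groups lay below both sham groups, without overlap. Of all genes, 7.09% had both WT-TAC libraries below both WT-Sham libraries, and 21.5% had Fat1-TAC below Fat1-Sham in the same way. The share with the whole pattern was not counted. Acadm (chr3:153922357-153944632), for medium chains and the enzyme lost in the human disorder MCAD deficiency, was at 1556 and 1330.4 FPKM in WT-Sham, 858 and 1514 FPKM in WT-TAC, 1594 and 1479.8 FPKM in Fat1-Sham, and 1610.4 and 1764 FPKM in Fat1-TAC. Unlike Acadl, its 2 highest libraries were both Fat1-TAC. Both Fat1-TAC libraries were above both WT-TAC libraries for 9.33% of all genes and above both Fat1-Sham libraries for 26.8%.

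Etfdh (chr3:79603788-79629500) passes the electrons of these dehydrogenases to ubiquinone. Its level was 332 and 319.7 FPKM in WT-Sham, 177 and 293 FPKM in WT-TAC, 339.5 and 370.4 FPKM in Fat1-Sham, and 381 and 346 FPKM in Fat1-TAC. Both WT-TAC libraries were below the other 6 for this gene. They were below both WT-Sham libraries for 7.09% of all genes and below both Fat1-TAC libraries for 9.33%. The share below all 6 was not counted.

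Hadha and Hadhb encode the alpha and beta subunits of the trifunctional protein, which hydrates, oxidizes and cleaves long chains. Hadha was at 1017 and 894 FPKM in WT-Sham, 528 and 906 FPKM in WT-TAC, 1094 and 1107 FPKM in Fat1-Sham, and 942 and 1027 FPKM in Fat1-TAC. Hadhb was at 929.6 and 799.8 FPKM in WT-Sham, 466 and 833 FPKM in WT-TAC, 935 and 896 FPKM in Fat1-Sham, and 1041 and 1000.4 FPKM in Fat1-TAC. The Fat1-TAC libraries were thus the 2 highest for the beta subunit, whereas the Fat1-Sham libraries were the 2 highest for the alpha subunit. Of all genes, 26.8% had both Fat1-TAC libraries above both Fat1-Sham libraries, and 21.5% had them below. Both Fat1-TAC libraries exceeded WT-TAC for 9.33%, and both Fat1-Sham libraries exceeded WT-Sham for 15.5%. The shares for the 2 highest of all libraries were not counted.

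Acaa2 encodes the thiolase that releases acetyl-CoA in the last step. It was at 558 and 485 FPKM in WT-Sham, 302 and 526 FPKM in WT-TAC, 562 and 565 FPKM in Fat1-Sham, and 517 and 534 FPKM in Fat1-TAC. Eci1 (chr17:24426641-24439348), an isomerase that moves double bonds of unsaturated chains into place, was at 243 and 212 FPKM in WT-Sham, 110.2 and 227 FPKM in WT-TAC, 247 and 264 FPKM in Fat1-Sham, and 219.5 and 232 FPKM in Fat1-TAC. WT-TAC1 was the lowest library for both, as for 15.7% of all genes tested. The other 7 lay within 485 to 565 FPKM for Acaa2 and 212 to 264 FPKM for Eci1.

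**Figure D1:**
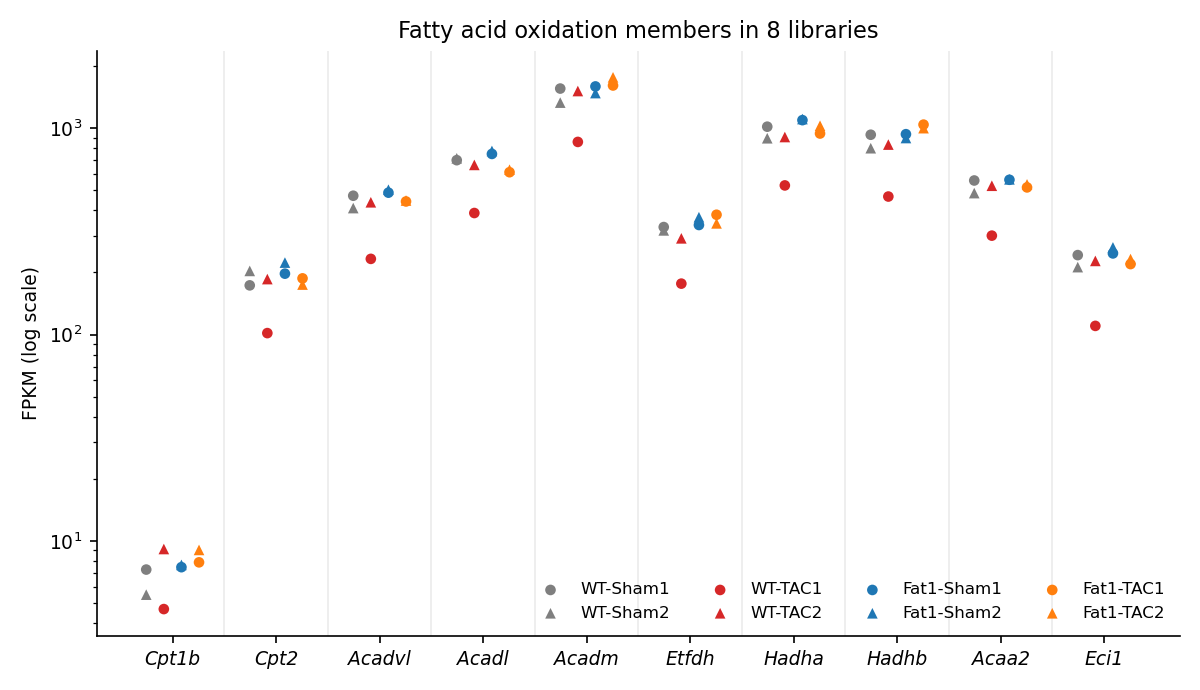
FPKM on a log scale of the 10 members, ordered by role, in the 8 libraries; colours are groups, circles the first and triangles the second library. The red circle, WT-TAC1, is the lowest point for all 10 members, and for 15.7% of all genes tested. Cpt1b lies at 4.67 to 9.14 FPKM, far under the other 9.

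The order of levels between members, in deposited FPKM, was Acadm, Hadha, Hadhb, Acadl, Acaa2, Acadvl, Etfdh, Eci1, Cpt2 and Cpt1b, with means over the 8 libraries from 1463 down to 7.32 FPKM. This order was the same in 7 of the 8 libraries, and only the neighbours Hadha and Hadhb overlapped within WT-Sham. It depends on the length the values were divided by, which for 7 of the 10 members was the mean over all annotated transcripts, short ones included. For Acadm this length was 794 bases, against 2047 for the principal transcript, and for Hadha 1583 against 4017. With the principal length, a choice made after seeing the data, the mean level was 624 for Hadhb, 568 for Acadm, 506 for Acaa2, 438 for Acadl, 370.2 for Hadha, 245 for Etfdh, 220.3 for Acadvl, 211 for Eci1, 74.5 for Cpt2 and 2.98 for Cpt1b, in FPKM. On this scale the neighbours Hadhb and Acadm, Acadm and Acaa2, and Acadvl and Eci1 overlapped within WT-Sham. Comparisons of 1 gene between libraries are not affected by its length.

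To ask what constriction does in wild-type hearts, WT-TAC was compared with WT-Sham. Relative to the WT-Sham mean, the 10 members were at 0.484 (Eci1) to 0.733 (Cpt1b) of their level in WT-TAC1, with 9 of them within 0.484 to 0.594. In WT-TAC2 they were at 0.898 (Etfdh) to 1.43 (Cpt1b), 9 of them within 0.898 to 1.05. The 2 WT-TAC libraries therefore differed from each other more than the second of them differed from sham. Of all fragments, 0.754% and 0.678% lay on the members in WT-Sham, and 0.397% and 0.698% in WT-TAC.

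**Figure D2:**
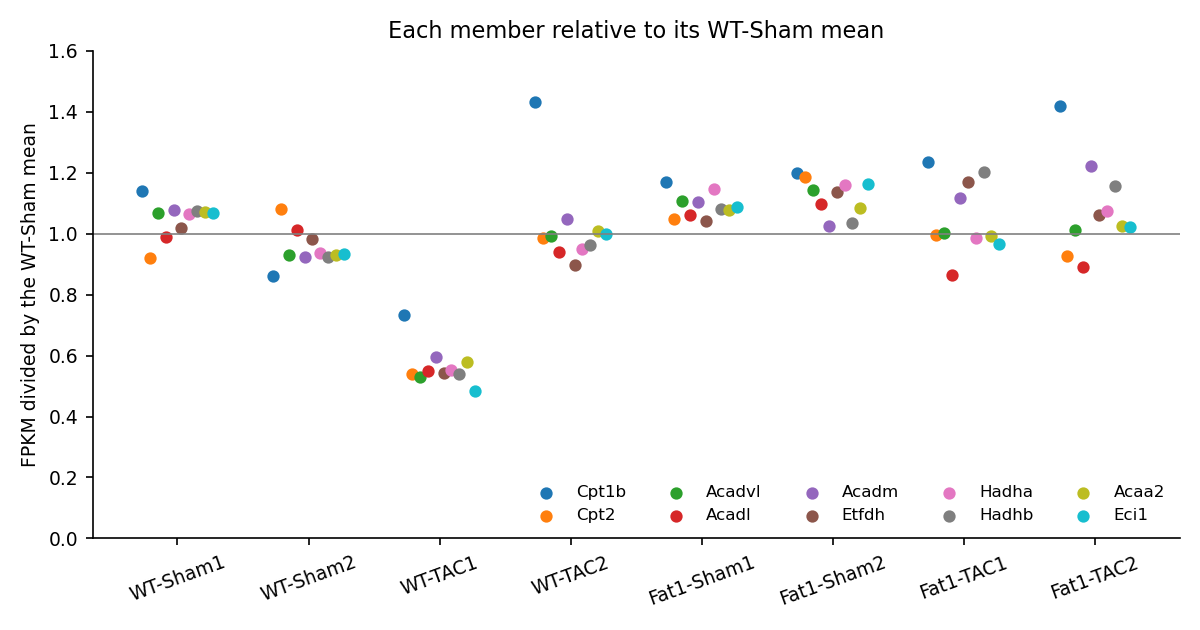
FPKM of each member divided by its WT-Sham mean, in each of the 8 libraries; colours are genes and the line marks 1. All 10 members lie at 0.484 to 0.733 in WT-TAC1, whereas WT-TAC2 lies at 0.898 to 1.43.

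In limma, on log2(FPKM + 1), 9 of 10 members had a negative log2 fold change in WT-TAC, from -0.52 for Etfdh (SE 0.24) to -0.34 for Acadm (SE 0.28), and Cpt1b was at 0.05 (SE 0.30). Their median was -0.46, while the median of all 14442 genes tested was 0.39. With the libraries scaled to the cardiomyocyte genes the members' median was 0.015 and 6 of the 10 turned sign. At the study's cutoff, an adjusted p (Benjamini-Hochberg) under 0.1 with a fold change over 1.5 in either direction, 0 of the 10 members were called, beside 0.935% of all genes tested. At the second cutoff, unadjusted, with p under 0.05 before adjustment and a fold over 1.5, 0 members were called lower, beside 1.11% of all genes, and limma-voom on recovered fragments also called 0. The adjusted p of the members lay between 0.19 for Etfdh and 0.91 for Cpt1b. For Etfdh the 95% interval of the log2 fold change ran from -1.08 to 0.042, and for Eci1 from -1.24 to 0.21, so a fall of more than 2-fold lies within both. Both WT-TAC libraries were below both WT-Sham libraries for 2 of 10 members, Acadl and Etfdh, and for 7.09% of all genes. Without WT-TAC1 the members' median was -0.011, and without WT-TAC2 it was -0.87, where 9 of 10 members were called at the adjusted cutoff together with 50.5% of all genes, WT-TAC1 alone then standing for its group.

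Whether the fat-1 background altered the constricted heart was asked by comparing Fat1-TAC with WT-TAC, which shares the WT-TAC libraries with the comparison above. All 10 members had positive log2 fold changes, from 0.29 for Acadl (SE 0.25) to 0.71 for Hadhb (SE 0.27), with a median of 0.49 where that of all genes was -0.40, but with the cardiomyocyte scaling 8 of the 10 were negative and the median was -0.15. At the adjusted cutoff 0 members were called, beside 1.43% of all genes, the smallest adjusted p being 0.16 for Etfdh. At the unadjusted cutoff 2 members were called higher, beside 1.72% of all genes: Hadhb at 0.71 (adjusted p = 0.17, limma) and Etfdh at 0.67 (SE 0.24, adjusted p = 0.16, limma). limma-voom called the same genes by this cutoff and 0 by the adjusted one. Both Fat1-TAC libraries lay above both WT-TAC libraries for Acadvl, Hadha, Etfdh, Hadhb and Acadm, 5 of 10 members, beside 9.33% of all genes. Without WT-TAC1, Hadhb was at 0.29, Etfdh at 0.31 and the members' median at 0.0092, with 0 members called. Without WT-TAC2 the median was 0.91, and all 10 members were called at the adjusted cutoff, beside 53.8% of all genes. The unadjusted call for Hadhb was also lost without any 1 of the other 6 libraries, and that for Etfdh without either Fat1-TAC library.

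In hearts of fat-1 mice, the members lay at 0.865 to 1.42 of the WT-Sham mean in both constricted libraries and at 1.03 to 1.20 in both sham libraries. Fat1-TAC minus Fat1-Sham had a median log2 fold change of -0.13 over the members and 0.025 over all genes, with the lowest value for Acadl, -0.30 (SE 0.25, 95% interval -0.89 to 0.29), and the highest for Hadhb, 0.16 (SE 0.27, 95% interval -0.49 to 0.80). Both Fat1-TAC libraries were below both Fat1-Sham libraries for Acadvl, Eci1, Hadha, Acadl, Cpt2 and Acaa2, 6 of 10 members, beside 21.5% of all genes. They were above for Hadhb, Acadm and Cpt1b, 3 of 10 members, beside 26.8% of all genes. By the adjusted cutoff 0 members were called (0.00692% of all genes), and by the unadjusted one also 0 (1.86% of all genes), in limma and in limma-voom.

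Between the sham groups, all 10 members had slightly positive log2 fold changes in Fat1-Sham, from 0.086 for Hadhb (SE 0.27) to 0.22 for Cpt1b (SE 0.30), with a median of 0.14 against -0.015 for all genes, although Acadl, Acadm, Hadhb and Acaa2 were negative with the cardiomyocyte scaling. Both Fat1-Sham libraries exceeded both WT-Sham libraries for Acadvl, Eci1, Hadha, Acadl, Etfdh, Acaa2 and Cpt1b, 7 of 10 members, beside 15.5% of all genes. None was called: 0 members and 0% of all genes at the adjusted cutoff, and 0 members beside 0.893% of all genes at the unadjusted one, by limma, and 0 by limma-voom. The 95% interval for Hadha, the member with the second highest value, was -0.41 to 0.83.

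The interaction, the constriction effect in fat-1 hearts minus that in wild-type hearts, had a median of 0.30 over the members and -0.37 over all genes. Its values ran from 0.091 for Cpt1b (SE 0.42) to 0.62 for Hadhb (SE 0.39, adjusted p = 0.49 in limma). By limma, 0 members were called at the adjusted cutoff (0.0692% of all genes) and 0 at the unadjusted one (6.99% of all genes), and 0 by limma-voom. The median was -0.13 without WT-TAC1 and -0.22 with the cardiomyocyte scaling, and without WT-TAC2 it was 0.72, with 8 of 10 members called beside 45.8% of all genes.

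**Figure D3:**
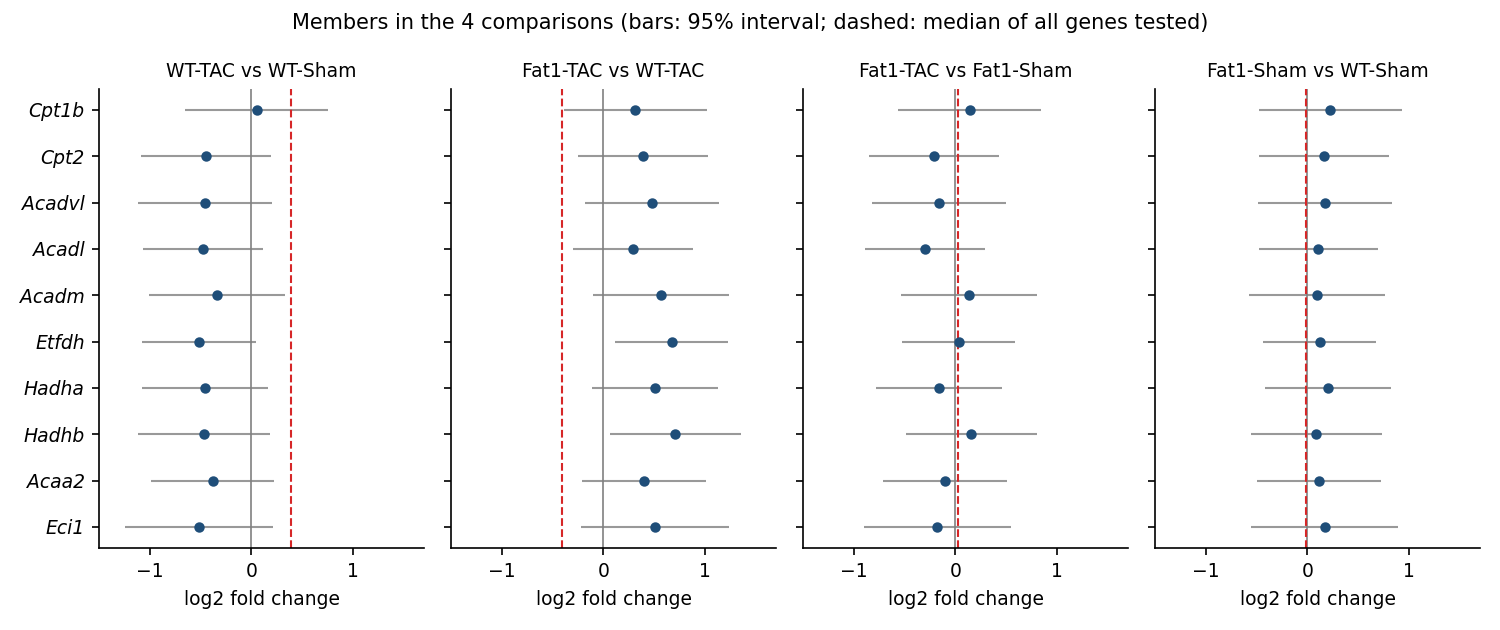
Log2 fold change of each member in the 4 comparisons, with bars for the 95% interval of limma and a dashed line for the median of all genes tested. In WT-TAC vs WT-Sham 9 of the 10 points are negative and the dashed line is at 0.39, and in Fat1-TAC vs WT-TAC only the bars of Etfdh and Hadhb stay above 0. Without WT-TAC1 the medians of these panels are -0.011 and 0.0092.

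The members ran alongside other genes of the heart muscle cell. Their mean log2(FPKM + 1) minus that of the 12 cardiomyocyte genes was -2.65 and -2.72 in WT-Sham, -2.58 and -2.64 in WT-TAC, -2.58 and -2.73 in Fat1-Sham, and -2.74 and -2.80 in Fat1-TAC. On this relative scale WT-TAC1 lay at the upper end of the libraries and Fat1-TAC at the lower end. Against 11 citric acid cycle genes, the enzymes that burn the acetyl-CoA, the difference was -0.88 and -0.97 in WT-Sham, -0.97 and -0.85 in WT-TAC, -0.87 and -0.85 in Fat1-Sham, and -0.73 and -0.80 in Fat1-TAC. The citric acid cycle genes had median log2 fold changes of -0.39 in WT-TAC vs WT-Sham and 0.31 in Fat1-TAC vs WT-TAC, with 0 of 11 called by either cutoff in limma. The 12 cardiomyocyte genes had medians of -0.53 and 0.63, and 5 of them were called higher in the second comparison at the unadjusted cutoff, beside 1.72% of all genes.

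**Figure D4:**
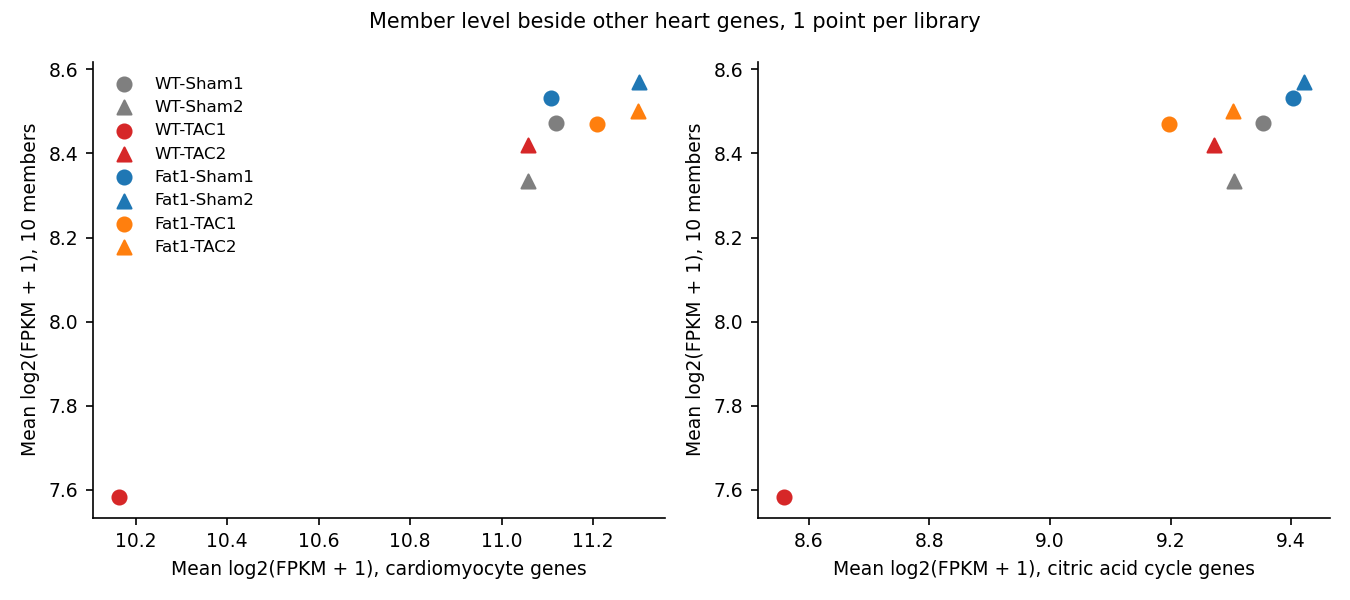
Mean log2(FPKM + 1) of the 10 members against that of the 12 cardiomyocyte genes (left) and the 11 citric acid cycle genes (right), 1 point per library. WT-TAC1 lies alone at the lower left of both panels, with the members at 7.58 where the other libraries are at 8.34 to 8.57.

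The likeness of the members to one another rested on that library. Over the 8 libraries the Pearson r between members, on log2(FPKM + 1), had a median of 0.93 over 45 pairs (0.565 to 0.998), and over the 7 libraries without WT-TAC1 a median of 0.34 (-0.60 to 0.97). Among 6902 other genes with a mean of 10 FPKM or more, those most like the members' mean over 8 libraries were Coq9 (r = 0.993), of ubiquinone synthesis, Immt (0.993), of the mitochondrial inner membrane, Cyc1 (0.993), of respiratory complex III, Decr1 (0.992), which reduces double bonds of unsaturated chains, and Fsd1l (0.991). Without WT-TAC1 their r was 0.860, 0.906, 0.844, 0.862 and 0.889. An r above 0.9 was found for 539 of these genes, and the libraries differ in tissue mixture and depth as described above.

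Ratios between members within a library do not depend on how the libraries are scaled. Both Fat1-TAC libraries lay outside the range of the other 6 for 15 of the 45 pairs of members (33.3%), beside 12% of all pairs among the 6875 genes with a mean of 10 FPKM or more that were above 0 in every library, a background added after seeing the data. For the other groups, whose own 2 libraries were set against the remaining 6, the count was 2 in WT-Sham (4.44%, beside 4.49% of all pairs), 10 in WT-TAC (22.2%, beside 34.8%) and 5 in Fat1-Sham (11.1%, beside 13.2%). Pairs share genes and are not independent. Of the 15 pairs, 7 had Acadl as the lower partner, which covers every member other than Cpt2 and Cpt1b, and 6 had Hadhb as the higher one. The Hadhb to Hadha ratio was 1.10 and 0.974 in Fat1-TAC, 0.855 and 0.809 in Fat1-Sham, 0.883 and 0.919 in WT-TAC, and 0.914 and 0.895 in WT-Sham. The subunits assemble together in the enzyme, and the genes share the 85 bases printed above. The Acadm to Acadl ratio was 2.63 and 2.80 in Fat1-TAC and 1.86 to 2.28 in the other 6 libraries. Etfdh was at 0.502 and 0.469 of Etfa, an upstream subunit of the same electron chain, in Fat1-TAC, and at 0.389 to 0.437 elsewhere. These 3 ratios were chosen after their values were seen and carry no test.

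**Figure D5:**
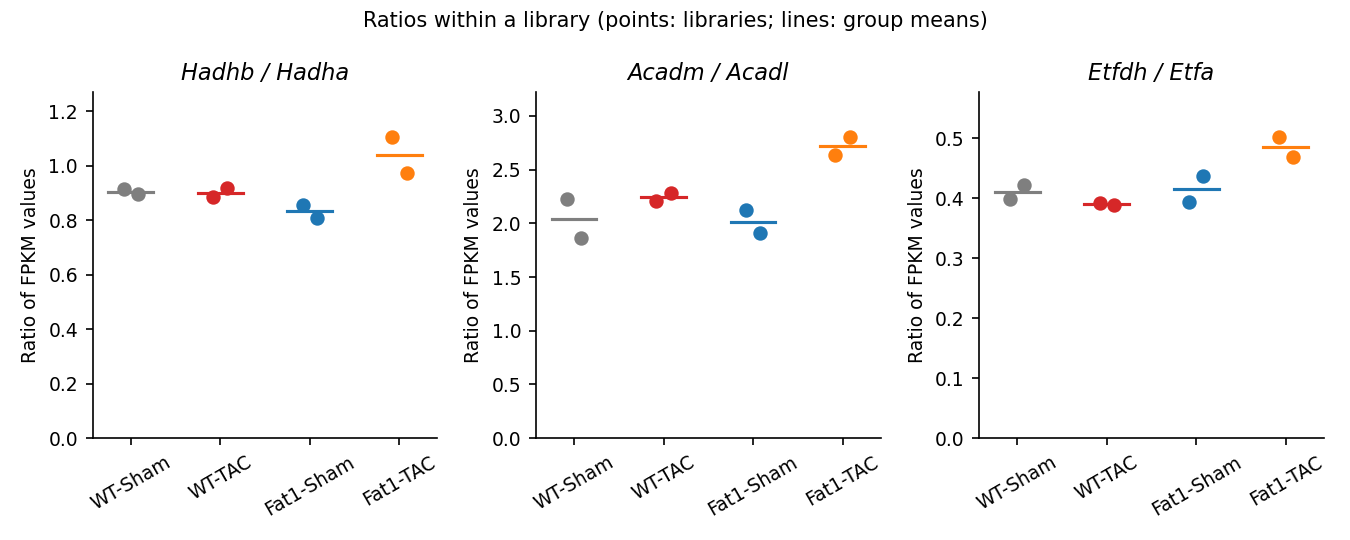
Ratios of FPKM values within a library for Hadhb to Hadha, Acadm to Acadl and Etfdh to Etfa, by group; points are libraries and lines group means. In each panel both Fat1-TAC points are the highest, from 0.974 for Hadhb to Hadha, from 2.63 for Acadm to Acadl and from 0.469 for Etfdh to Etfa.

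Another 16 genes of the pathway were measured, and all 16 were tested. In WT-TAC vs WT-Sham their median log2 fold change was -0.35, with 14 of 16 negative, but with the cardiomyocyte scaling the median was 0.13 and 11 were positive. At the adjusted cutoff 0 were called, and at the unadjusted one 3 were called lower, beside 1.11% of all genes: Acot2 at -0.88, a mitochondrial acyl-CoA thioesterase, Mlycd at -0.75, malonyl-CoA decarboxylase, which removes the inhibitor of Cpt1, and Acot13 at -0.67, another thioesterase, each with an adjusted p of 0.17 in limma. Acot2 was at 29.6 and 35.1 FPKM in WT-Sham, 12.3 and 23.7 FPKM in WT-TAC, 37.2 and 45.3 FPKM in Fat1-Sham, and 31.8 and 26.4 FPKM in Fat1-TAC. Mlycd was at 41.1 and 46.0 FPKM in WT-Sham, 19.4 and 33.3 FPKM in WT-TAC, 53.1 and 57.1 FPKM in Fat1-Sham, and 45.4 and 37.2 FPKM in Fat1-TAC. In both genes each WT-TAC library, WT-TAC2 included, was below the other 6. Of all genes, 7.09% had both WT-TAC libraries below both WT-Sham libraries, and 9.33% had them below both Fat1-TAC libraries. The share below all 6 was not counted. Without WT-TAC1 the values were -0.43 for Acot2, -0.37 for Mlycd and -0.33 for Acot13, with the cardiomyocyte scaling they were -0.43, -0.29 and -0.19, and 0 genes of the list were called in either case. Acacb, whose product malonyl-CoA inhibits Cpt1, was at 66.1 and 74.2 FPKM in WT-Sham, 41.6 and 89.3 FPKM in WT-TAC, 86.5 and 92.5 FPKM in Fat1-Sham, and 67.5 and 74.4 FPKM in Fat1-TAC, the WT-TAC libraries standing on either side of sham.

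In Fat1-TAC vs WT-TAC the 16 genes had a median of 0.32, with 14 positive, but with the cardiomyocyte scaling the median was -0.31 and 4 were positive. By limma, 4 were called higher at the unadjusted cutoff, beside 1.72% of all genes, and 0 at the adjusted one. These were Acot13, Acot2 and Mlycd again, at 0.71, 0.73 and 0.67, and Ech1 at 0.73 (adjusted p = 0.16, limma), an isomerase of unsaturated chains. Ech1 was at 1425 and 1169 FPKM in WT-Sham, 713 and 1238 FPKM in WT-TAC, 1449 and 1388 FPKM in Fat1-Sham, and 1537 and 1588 FPKM in Fat1-TAC. Both Fat1-TAC libraries were thus the highest, as for Hadhb and Acadm. They were above both WT-TAC libraries for 9.33% of all genes and above both Fat1-Sham libraries for 26.8%. Acot13 was at 491 and 447 FPKM in WT-Sham, 234 and 372 FPKM in WT-TAC, 399.8 and 446 FPKM in Fat1-Sham, and 499 and 466 FPKM in Fat1-TAC. Without WT-TAC1 the values were 0.37 for Acot13, 0.28 for Acot2, 0.29 for Mlycd and 0.33 for Ech1, with the cardiomyocyte scaling they were 0.064, 0.12, 0.045 and 0.089, and 0 genes of the list were called in either case.

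The other genes of the pathway were not called in WT-TAC vs WT-Sham. There the log2 fold change was -0.58 for Slc25a20, the carnitine-acylcarnitine carrier, -0.38 for Crat, carnitine acetyltransferase, 0.25 for Cpt1a and -0.0033 for Slc22a5, the plasma membrane carnitine transporter. For the matrix enzymes it was -0.13 for Acads, the short-chain dehydrogenase, -0.31 for Echs1, enoyl-CoA hydratase, and -0.31 for Hadh, the short-chain hydroxyacyl dehydrogenase. The electron transfer flavoprotein was at -0.45 for Etfa and 0.00057 for Etfb, and the auxiliary enzymes were at -0.49 for Decr1, -0.46 for Ech1 and -0.085 for Eci2. Acacb was at -0.20. Etfb was listed at 12.9 to 23.5 FPKM beside 450 to 862 FPKM for its partner Etfa, and it shares 58.2% of its exon bases with other annotated genes, as Cpt1b does, so its level is equally uncertain. In Fat1-TAC vs Fat1-Sham and in Fat1-Sham vs WT-Sham, 0 of the 16 were called by either cutoff in limma, with medians of -0.13 and 0.13.

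Lists of 9 peroxisomal oxidation genes and 8 regulators were also measured. The peroxisomal genes had a median of 0.21 in WT-TAC vs WT-Sham and -0.33 in Fat1-TAC vs WT-TAC, with Acaa1b and Abcd2, at up to 5.64 and 6.69 FPKM, called higher in the first and lower in the second by the unadjusted cutoff of limma. These 2 of 9 genes stand beside 22.7% of all genes called higher in the first comparison and 23.5% called lower in the second. The regulators, among them PPAR alpha and PGC-1 alpha, had medians of -0.26 and 0.22. Ppargc1a, which encodes PGC-1 alpha, was called lower in WT-TAC at the unadjusted cutoff (1 of 8, beside 1.11% of all genes). Yet its WT-Sham libraries were at 70.8 and 30.9 FPKM and WT-TAC at 16.5 and 31.2 FPKM, which overlap. Fat1-Sham was at 46.2 and 44.9 FPKM and Fat1-TAC at 25.2 and 26.6 FPKM, without overlap, as for 21.5% of all genes. In that comparison 0 of the 8 regulators were called by either cutoff in limma.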

How the data were processed

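RNA was sequenced from 8 mouse hearts. The authors deposited 1 FPKM value per gene and library for 25929 genes, 25852 of them with a symbol, and 4 blank lines were dropped. Per the methods, clean reads from NEBNext Ultra libraries were mapped to the reference transcriptome. The submitters' processing notes name HISAT2 and the builds mm10 and GRCm38, and the counting program and annotation are not given in the sources used here. For 25928 genes (99.996%) the values were whole numbers of fragments, within 0.01, at a single length, and for 23335 (90.0%) this was the mean length of the annotated transcripts (GENCODE M21). Such a length raises the FPKM of genes with short annotated transcripts. Depth was taken from these fragments, and the intervals given are limma's.

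The 14442 genes that reached 1 FPKM in 2 libraries were fitted as log2(FPKM + 1) in limma (version 3.58.1, R 4.3.3; lmFit, eBayes with trend) with 4 group means over all 8 libraries, and p was adjusted by Benjamini-Hochberg over all genes. A trial of the fit on simulated data gave every library the same spread, so it cannot show how the fit handles the uneven spread here. The 2 WT-TAC libraries differed over 2-fold for 2560 genes, and the pairs of the other groups for 275 to 362. Fold changes on this scale understate those of low genes. Calls need an adjusted p under 0.1, or an unadjusted p under 0.05, with a fold change over 1.5. The SE, interval and p of a gene rest on a single spread pooled over the 4 groups of 2 samples. WT-TAC thus enters them also in the comparisons without it. Acadl, for example, had an SD of 195 FPKM in WT-TAC and 10.4 to 17.9 FPKM in the other groups. With only the 2 groups compared, the smallest adjusted p of the members in Fat1-TAC vs Fat1-Sham was 0.18 (limma), and 0 were called.

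The members and gene lists were chosen with earlier results of these data known. Named are all members, all genes of the pathway list, and the 5 other genes at a mean of 10 FPKM or more with the highest r with the members. Single genes of other lists are named where a result turns on them. Alternatives were 2 other scalings, 2 other filters, a pseudocount of 0.1, a replicate block, a fit restricted to the pair of groups in question, limma-voom on recovered fragments, and leaving out each library. Marker lists were cardiomyocyte, atrial, fat, airway, alveolar, B cell, thymocyte, endothelial, fibroblast, macrophage, skeletal muscle and blood.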

Additional observations from a re-analysis of the deposited data

Results flagged for a closer look

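Acot13, a thioesterase of the wider pathway list, was lower with constriction in wild-type hearts and slightly higher in fat-1 hearts, without overlap of libraries. Both WT-TAC libraries, at 234 and 372 FPKM, were below both WT-Sham libraries, at 491 and 447 FPKM, as for 7.09% of all genes. Both Fat1-TAC libraries, at 499 and 466 FPKM, were above both Fat1-Sham libraries, at 399.8 and 446 FPKM, as for 26.8% of all genes. The log2 fold change in fat-1 hearts was only 0.19 (SE 0.23, 95% interval -0.35 to 0.73). The interaction was 0.85 on the log2 scale (adjusted p = 0.49 in limma), so it did not pass the adjusted cutoff. At the unadjusted cutoff it was 1 of 16 pathway genes, and it was positive. The share of all genes called in either direction was 6.99%, with 88 of 14442 positive and 921 negative. Over 15 alternatives it stayed above 0, from 0.33 with the cardiomyocyte scaling to 1.29 with the median of ratios, with adjusted p from 0.0022 without WT-TAC2 to 0.79 without Fat1-Sham1, and it was 0.52 without WT-TAC1. None of the 10 members met this pattern. No outlier test was run within groups of 2 libraries.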

How the results depend on the processing

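Of the members' summary values, those of Fat1-TAC vs Fat1-Sham and Fat1-Sham vs WT-Sham kept their direction under every alternative run, with medians of -0.18 to -0.088 and 0.025 to 0.21. Scaling by the median of ratios moved the median of all genes in WT-TAC vs WT-Sham from 0.39 to -0.017, gave member medians of -0.94 in WT-TAC vs WT-Sham, 0.96 in Fat1-TAC vs WT-TAC and 0.73 in the interaction, and called 2 members, Acadl and Etfdh, at the unadjusted cutoff in the first. Scaling to the cardiomyocyte genes moved that all-gene median to 0.81, gave member medians of 0.015, -0.15 and -0.22, and called 0 members in Fat1-TAC vs WT-TAC. That count was 1 with no filter beyond a value above 0 and 0 with only the 2 groups compared, where 2 were called before. The cause was not tested. Leaving out 1 library at a time gave medians of -0.87 to -0.011, 0.0092 to 0.91 and -0.13 to 0.72 in these 3 comparisons, all ends being set by WT-TAC1 or WT-TAC2. The members called ran from 0 to 9, 0 to 10 and 0 to 8 at the adjusted cutoff, and over the same ranges at the unadjusted one. Genes called at the adjusted cutoff over all alternatives ran from 0 to 7065 where 135 were called in WT-TAC vs WT-Sham, from 5 to 7523 where 206 were in Fat1-TAC vs WT-TAC, from 0 to 84 where 1 was in Fat1-TAC vs Fat1-Sham, and from 0 to 6398 where 10 were in the interaction. Of 790 member values under the alternatives 51 changed sign, 27 of them with the cardiomyocyte scaling and 15 without WT-TAC1, and of 1264 values of the pathway list 89 did. No sign change concerned a called value.

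Replicate numbers did not pair the libraries, since deviations of equal-numbered libraries correlated between groups at -0.14 to 0.024. With the replicate block the member medians were -0.46, 0.49, -0.13, 0.14 and 0.30, in the order of the 5 comparisons, and the genes called fell to 52 in each comparison that uses WT-TAC against 1 other group. Etfdh and Hadhb kept their unadjusted calls. Of the 26 genes tested by name, the fewest fragments lay on Cpt1b, 109 to 193 per library, and Etfb, 149 to 254.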

Other observations

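Marker lists that belong to no comparison above were read in the same libraries. The 5 endothelial markers summed to 187 FPKM in WT-TAC1 and 252 to 279.8 FPKM in the other 7 libraries. The 5 fibroblast markers summed to 592 and 933 FPKM in WT-Sham, 974 and 965 FPKM in WT-TAC, 576 and 528 FPKM in Fat1-Sham, and 542 and 559 FPKM in Fat1-TAC. The 4 macrophage markers were at 166 FPKM in WT-TAC1 and 86.5 to 129 FPKM elsewhere. The 5 B and plasma cell markers were at 83.4, 41.2 and 34.3 FPKM in WT-TAC1, WT-TAC2 and Fat1-TAC2, and at 1.65 to 3.41 FPKM in the other 5. The 6 white fat markers were at 612 and 792 FPKM in WT-TAC and 6.23 to 295 FPKM elsewhere. The 4 globin genes summed to 10500 and 9595 FPKM in WT-Sham, 4977 and 8347 FPKM in WT-TAC, 6145 and 4876 FPKM in Fat1-Sham, and 4197 and 5187 FPKM in Fat1-TAC.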
